A study of Rattus norvegicus with 16 samples.

Results

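The metalloproteinases and their tissue inhibitors were examined in rat skin that had lost its cutaneous nerves. The group comprised every gene whose symbol is Mmp, Adam or Timp followed by a digit or begins with Adamts. Of 82 such genes in the RefSeq annotation of the rat assembly GRCr8, 55 were measured by probesets assigned to a single gene, out of 14217 genes measured in all. They were 17 Mmp, 18 Adam, 12 Adamts, 4 Adamtsl and 4 Timp genes. The other 27 genes had no such probeset in the annotation used here and include Mmp1, the collagenase known as interstitial collagenase, Adam12, and the procollagen N-proteinases Adamts2, Adamts3 and Adamts14.

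Dorsal hairy skin of adult female Sprague-Dawley rats was hybridised to Affymetrix whole-genome rat arrays, one animal per array. Skin denervated for 7 days came from 5 rats, skin denervated for 14 days from 5 others, and naïve skin from 6. For denervation the left T9 and T10 cutaneous nerves, along with a more caudal set, were ligated and cut under anaesthesia through an incision on the right side, and the T11 nerves between them were spared as a source of collateral sprouts. Naïve rats had no surgery, so the loss of the nerves, the incision and the anaesthesia cannot be told apart in any comparison with naïve skin. Every sample came from the T9/T10 territory and holds the underlying cutaneous trunci muscle, whose own innervation was left intact.

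Values are log2 expression made by robust multi-array averaging (RMA), and the value of a gene is the median over its probesets. Since probesets differ in brightness, levels were compared between arrays for the same gene and not between genes. A gene is called changed when its adjusted p is under 0.05 in limma, fitted over all genes. Each p-value sets the difference between groups against the spread between animals. That spread is estimated from all groups together and with the aid of all genes, so it is not that of the compared groups alone. In bulk tissue, fewer cells of a type and less RNA per cell cannot be told apart. A gene was classed as dim when its mean over the 16 arrays was under 5.4964, the lower quartile of all genes, and dim members are described by their levels and calls, with a fitted difference only for those that differed between the times. There were 17 dim members, namely 7 Mmp, 7 Adam, 2 Adamts and 1 Adamtsl gene.

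Matrix metalloproteinases (Mmp) are zinc enzymes that cut collagens, other matrix proteins and cell surface proteins, and most are made as inactive precursors. The Adam genes encode membrane proteins with a disintegrin domain, some of which release growth factors, cytokines and receptors from the cell surface, while others lack protease activity. Adamts enzymes are secreted and include the hyalectanases, which cut the proteoglycans aggrecan and versican. Adamtsl proteins resemble them but have no protease domain. The tissue inhibitors of metalloproteinases (Timp) bind the active site of these enzymes. In skin the system is known for its part in wound repair, hair cycling and inflammation.

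Naïve arrays were less alike than denervated ones. The correlation between arrays of a group ranged from 0.978 to 0.992 at 7 days, from 0.993 to 0.996 at 14 days and from 0.931 to 0.994 in naïve skin. Naïve replicates 1 and 2 had hair follicle marker levels of 11.89 and 12.19, against 6.26 to 6.5 in the other 4, and naïve replicates 4 and 5 had the lowest fibroblast marker levels of any array, at 10.01 and 9.11. The counts of called members are therefore also given without each of these pairs. Keratinocyte markers averaged 10.02 to 11.36 and skeletal muscle markers 10.98 to 12.81 in every array.

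At 7 days the clearest change in the group was a rise of an inhibitor. Timp1 was higher by 3.95 on the log2 scale, and 8 proteases were also higher, among them Adamts15, Adamts12, Mmp23, Mmp14 and Mmp19. Together 9 of the 55 members were called higher at 7 days (16.4%), against 7.85% of all genes, and 1 was called lower (1.82%), against 2.66% of all genes. The median change of the members was 0.11, against -0.02 over all genes. All 9 were among the 38 members that were not dim, and none of the 17 dim members was called at 7 days. This split is partly built in, because the dim class uses the mean over all 16 arrays and a rise after denervation lifts that mean. Mmp19 passed with a mean of 5.501 against the limit of 5.4964, while all of its naïve values lay under the limit. The share of calls among all genes that were not dim was not counted. Without naïve replicates 4 and 5, 7 members were called higher and 0 lower, and without naïve replicates 1 and 2, 13 were higher and 8 lower.

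At 14 days 8 members were called higher (14.5%), against 8.95% of all genes, and 2 lower (3.64%), against 14.6% of all genes. The median change was 0.11 over members and 0.02 over all genes. Most of these calls were lost without the naïve pair with low fibroblast markers. Without naïve replicates 4 and 5, 1 member was higher, Mmp19, and 0 were lower, while without replicates 1 and 2 the counts were 9 and 9. Set directly against 7 days, 14-day skin had 5 members higher (9.09%), against 8.86% of all genes, and 6 lower (10.9%), against 10.1% of all genes. These shares are close to those of all genes, and without naïve replicates 4 and 5 the counts were 5 and 7. The members called lower at 14 days than at 7 days were Timp1, Adamts15, Adamts1, Adam15, Adam19 and Adam17. Both comparisons with naïve skin use the same 6 naïve arrays.

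**Figure D1:**
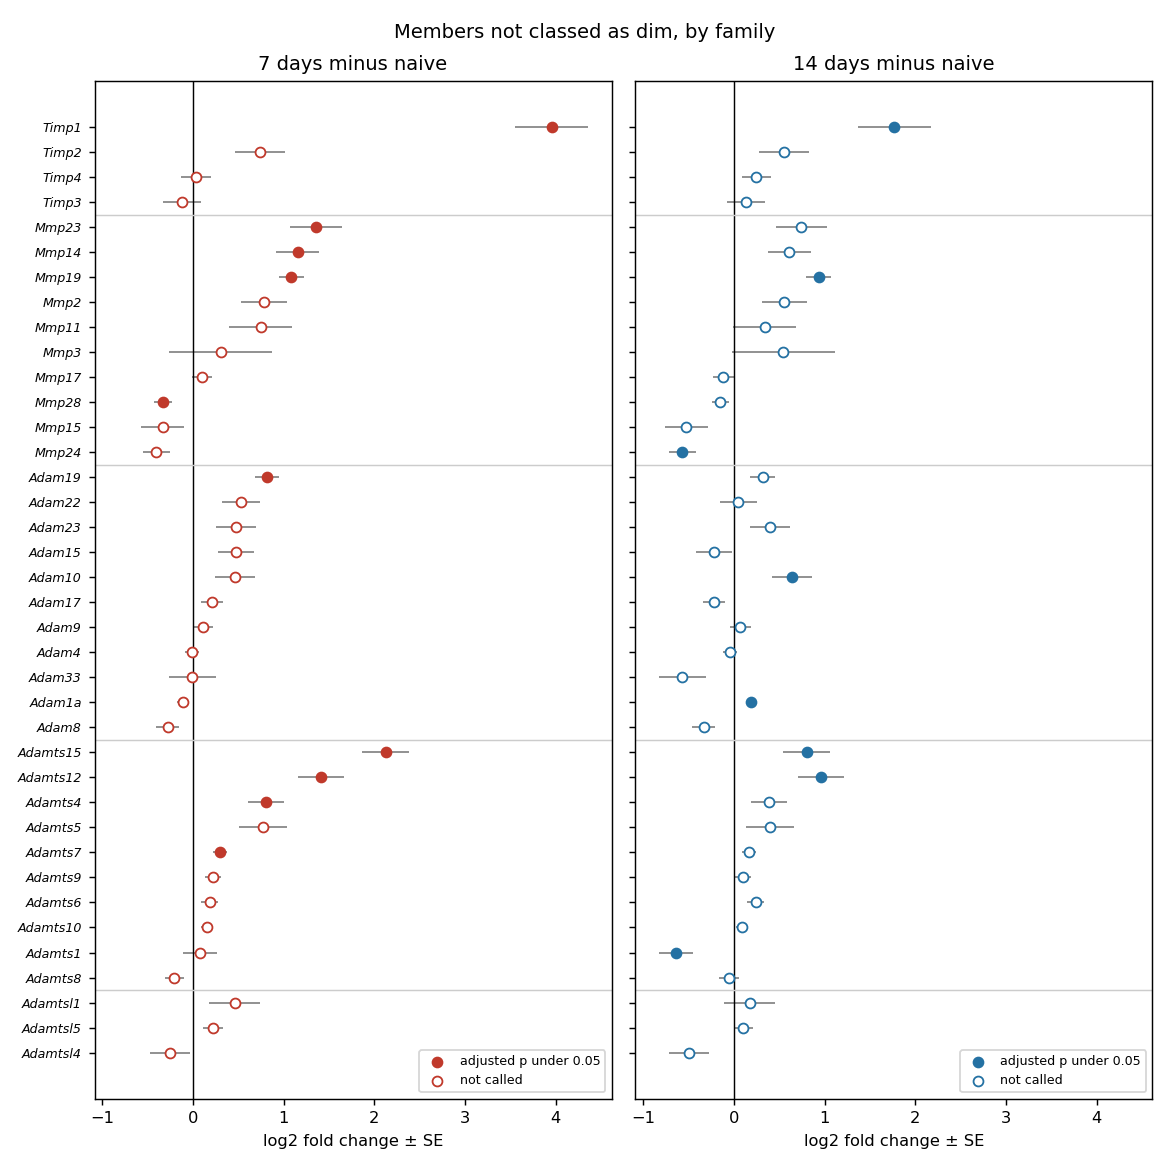
Log2 fold change (x axis) of the 38 members that were not dim, at 7 days minus naïve and at 14 days minus naïve, with the standard error as bars. Filled points were called and open points were not. Timp1 lies farthest from 0 at both times, at 3.95 and 1.77.

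Of the inhibitors, Timp1, which inhibits most secreted Mmp enzymes, was the only one called in any comparison. At 7 days its RMA values were 10.71, 11.07, 11.44, 12.22 and 10.66, and in naïve skin they were 8.09, 7.97, 8.03, 6.54, 6.12 and 6.85. Every 7-day array lay above every naïve array, and the naïve values themselves fell into replicates 1 to 3 near 8 and replicates 4 to 6 below 7. The difference was 3.95 ± 0.40 (SE), a 15.5-fold rise, with an adjusted p of 0.000191 and a 95% interval of 3.10 to 4.81. At 14 days Timp1 stood at 9.35, 8.67, 8.47, 9.84 and 8.84, still above every naïve array. Relative to naïve it was higher by 1.77 ± 0.40 (adjusted p = 0.0095). It was lower at 14 days than at 7 days with a difference of -2.18 ± 0.42 (adjusted p = 0.00527), with no overlap between the times. Without naïve replicates 4 and 5 the 14-day difference was 1.30 and its adjusted p 0.0501.

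The other 3 inhibitors were not called at either time. Timp2, which blocks Mmp enzymes and also helps Mmp14 activate the Mmp2 precursor, had 10.65, 11.13, 11.01, 11.40 and 10.19 at 7 days, against 10.30, 10.66, 10.80, 9.50, 9.23 and 10.34 in naïve skin. The groups overlapped, and the difference was 0.74 (95% interval 0.15 to 1.32, adjusted p = 0.0938). At 14 days Timp2 had 11.05, 10.50, 10.56, 10.75 and 10.57, a difference of 0.55 from naïve skin (adjusted p = 0.15). It passed the threshold at 7 days in 3 of 29 alternative settings, including the one without naïve replicates 1 and 2.

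Timp3, the inhibitor that binds to the matrix and also acts on Adam17 and the hyalectanases, had 8.63, 8.88, 8.17, 8.08 and 8.87 at 7 days, against 9.05, 9.20, 8.81, 8.07, 8.45 and 8.29 in naïve skin. Its 14-day values were 8.96, 8.48, 8.78, 9.07 and 8.62. Its differences from naïve skin were -0.12 at 7 days (95% interval -0.57 to 0.33, adjusted p = 0.726) and 0.14 at 14 days (-0.31 to 0.59, adjusted p = 0.659), and the sign of each changed between settings. None of its 4 probesets was called.

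Timp4, an inhibitor best known from heart and muscle, had 6.59, 6.80, 6.76, 6.37 and 7.16 at 7 days, against 7.02, 6.81, 7.08, 6.25, 6.48 and 6.60 in naïve skin. The 14-day values were 7.21, 6.72, 7.12, 6.82 and 6.89. The differences were 0.03 (95% interval -0.31 to 0.38) at 7 days and 0.25 (-0.10 to 0.59) at 14 days, with adjusted p of 0.903 and 0.262. The sign at 7 days changed between settings. For both genes these intervals lie well below the change of Timp1.

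**Figure D2:**
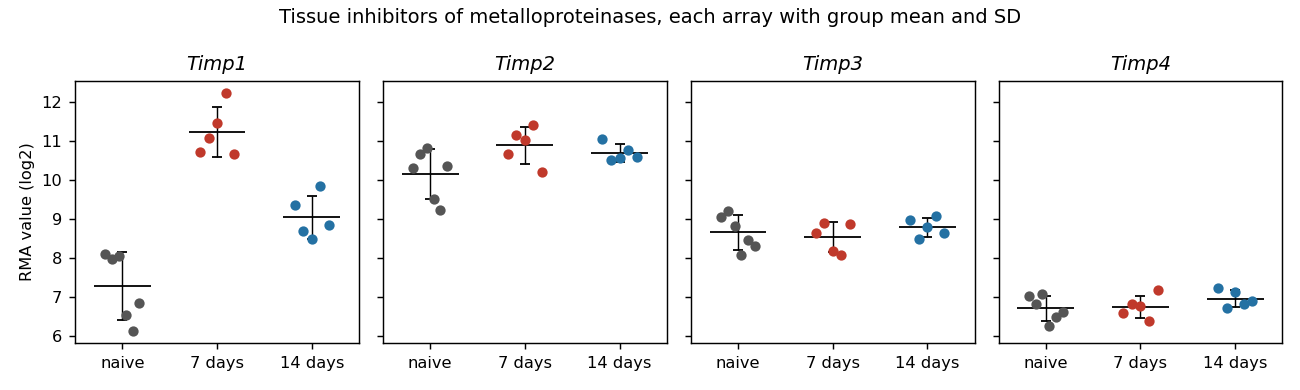
RMA value on the log2 scale (y axis) of each inhibitor in every array, by group, with the group mean (line) and SD (bars). The 7-day values of Timp1, 10.66 to 12.22, lie above all of its naïve values, while for Timp2, Timp3 and Timp4 the groups overlap.

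The promoter of Timp1 is shown because its gene had the largest change of the group. RefSeq promoters, covering 250 bases before to 50 bases after each start in GRCr8, were found for 34 of the 55 members (37 promoters). They were searched on both strands for the AP-1 motif TGANTCA, the PEA3 motif AGGAAG and the TATA box TATAAA, where N is any base. AP-1 and PEA3 sites are the elements known from Mmp promoters that answer to Fos/Jun and Ets factors. In the Timp1 sequence, at chrX:3771073-3771372 on the minus strand, there is no exact match to the AP-1 or TATA letters. Such matches would have been written in capitals. Near matches, such as the letters tgagtaa in this sequence, were not counted, so an AP-1 site of other letters would be missed. PEA3 letters occur 2 times and are left in lower case.
Timp1: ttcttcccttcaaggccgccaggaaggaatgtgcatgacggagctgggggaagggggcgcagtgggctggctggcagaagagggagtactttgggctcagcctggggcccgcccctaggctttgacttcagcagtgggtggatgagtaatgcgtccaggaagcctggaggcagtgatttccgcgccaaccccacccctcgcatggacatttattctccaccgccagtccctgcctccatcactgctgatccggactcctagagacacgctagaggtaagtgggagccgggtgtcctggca

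AP-1 letters were found in 6 of the 37 member promoters (16.2%), against 7.33% of all 33469 promoters, and TATA letters in 11 (29.7%), against 14.2%. PEA3 letters were in 13 (35.1%), against 34.5% of all promoters. Of the 6 matched members called higher at 7 days, 1 held AP-1 letters (Adam19), 1 held TATA letters (Adamts7) and 3 held PEA3 letters (Timp1, Adamts12 and Adamts4). The other 5 AP-1 promoters all belong to one cluster of Mmp genes on chromosome 8, as do 6 of the 11 TATA promoters. These matches are descriptions of letters and say nothing of whether a factor was bound.

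That cluster holds 6 measured genes in the order Mmp13, Mmp12, Mmp3, Mmp10, Mmp8 and Mmp7, which encode collagenases, metalloelastase, stromelysins and matrilysin. Mmp1, Mmp1b, Mmp20 and Mmp27 lie among them and were not analysed here. Their last 100 bases before the start are shown because 5 of the 6 promoters place an AP-1 motif upstream of a TATA box in this window. Capitals mark AP-1 and TATA letters. All are on the plus strand of GRCr8, at chr8:12782729-12782828, chr8:12866552-12866651, chr8:12925181-12925280, chr8:12974607-12974706, chr8:13008790-13008889 and chr8:13132943-13133042. The AP-1 motif begins 66, 87, 71, 61 and 80 bases before the start of Mmp13, Mmp12, Mmp3, Mmp10 and Mmp7. Mmp8 has a TATA box on the opposite strand and no AP-1 letters.
Mmp13: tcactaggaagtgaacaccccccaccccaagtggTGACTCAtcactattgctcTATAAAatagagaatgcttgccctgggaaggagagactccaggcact
Mmp12: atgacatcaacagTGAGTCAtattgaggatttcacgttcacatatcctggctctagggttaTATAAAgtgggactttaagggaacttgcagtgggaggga
Mmp3: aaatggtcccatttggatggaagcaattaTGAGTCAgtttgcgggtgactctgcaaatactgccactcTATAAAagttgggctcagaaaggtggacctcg
Mmp10: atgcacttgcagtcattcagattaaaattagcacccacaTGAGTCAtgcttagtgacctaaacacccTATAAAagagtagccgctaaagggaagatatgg
Mmp8: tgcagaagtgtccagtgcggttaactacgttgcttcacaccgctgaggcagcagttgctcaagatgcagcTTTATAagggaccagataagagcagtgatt
Mmp7: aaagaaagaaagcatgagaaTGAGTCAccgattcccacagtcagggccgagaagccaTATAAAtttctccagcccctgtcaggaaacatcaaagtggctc

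None of these 6 genes was called against naïve skin at 7 or 14 days, and all except Mmp3 were dim. Mmp13, the main rat collagenase, stayed between 3.68 and 3.85 at 7 days, between 3.70 and 3.84 at 14 days and between 3.56 and 3.88 in naïve skin. Mmp8, the neutrophil collagenase, had no value over 4.26. Mmp12, the macrophage metalloelastase, had 6.59 in 7-day replicate 4, against 4.56 to 4.96 in the other 7-day arrays and 4.32 to 4.76 in naïve skin. Mmp10 was called higher at 14 days than at 7 days (adjusted p = 0.0197), with 4.27 to 4.41 at 14 days and 4.07 to 4.23 at 7 days.

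Mmp3, stromelysin 1, was not dim by its mean but was scattered, with some values under the dim limit of 5.4964. Its values were 6.78, 7.04, 8.47, 6.70 and 5.24 at 7 days, against 6.55, 7.91, 7.61, 5.43, 5.01 and 6.72 in naïve skin. At 14 days they were 7.68, 7.29, 6.92, 7.41 and 6.12. Its differences of 0.31 (95% interval -0.90 to 1.52) at 7 days and 0.55 (-0.66 to 1.76) at 14 days were within this spread, with adjusted p of 0.737 and 0.495. Genes for the factors that bind these motifs were mostly not called. Of 10 measured, Ets1 was higher at 7 days by 0.73 (adjusted p = 0.0245), and Fosl1 and Fosl2 were higher at 14 days by 0.43 and 0.78 (adjusted p = 0.0259 and 0.049), where Ets2 was lower with a difference of -0.43 (adjusted p = 0.00869). Set directly against 7 days, 14-day skin had Ets1 lower with a difference of -0.82 (adjusted p = 0.0138) and Fosl1 higher by 0.41 (adjusted p = 0.0418). The other factors were not called between the times.

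**Figure D3:**
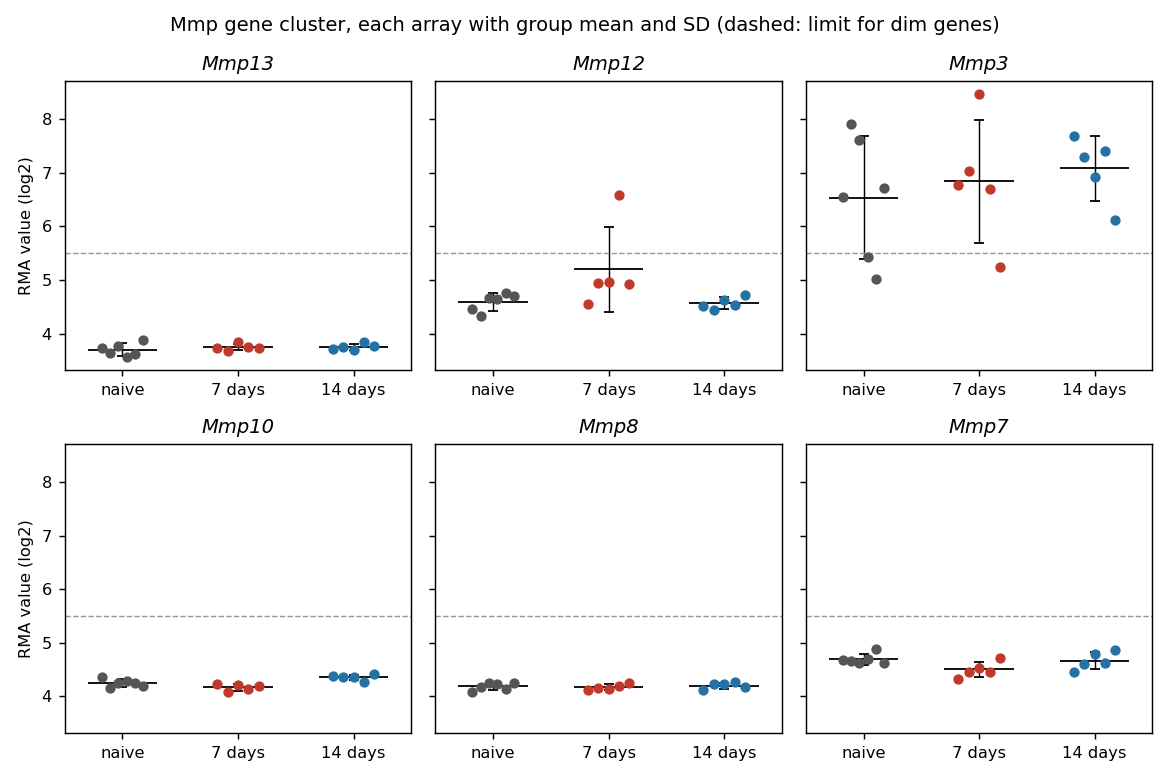
RMA value on the log2 scale (y axis) of the 6 measured genes of the chromosome 8 Mmp cluster in every array, with group mean and SD. The dashed line is the limit for dim genes, 5.4964. Apart from Mmp3 and Mmp12 in 7-day replicate 4, every value lies under it.

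The Mmp genes that were higher at 7 days lie outside that cluster. Of the 17 Mmp genes, 3 were higher (17.6%), 1 lower (5.88%) and 13 not called at 7 days, against 7.85% higher and 2.66% lower of all genes. At 14 days 2 were higher (11.8%), 1 lower (5.88%) and 14 not called, against 8.95% higher and 14.6% lower of all genes. Mmp14, the membrane-type enzyme that cuts collagen at the cell surface and activates the Mmp2 precursor, had 8.91, 9.37, 9.19, 10.00 and 8.84 at 7 days. The naïve values had a lowest of 7.25, a median of 8.31 and a highest of 8.52, so the groups did not overlap. The rise was 1.15 ± 0.24 (SE), with an adjusted p of 0.00924. At 14 days Mmp14 had 8.88, 8.42, 8.54, 9.04 and 8.73, overlapping naïve skin, and was not called (0.61, adjusted p = 0.0727). Its brighter probeset gave 1.73 at 7 days and 1.09 at 14 days, both called (adjusted p = 0.0122 and 0.0445 over all probesets), and its dimmer one gave 0.58 and 0.13.

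Mmp23, a membrane-anchored Mmp with an unusual cysteine-rich domain, had 8.33, 8.97, 8.80, 9.53 and 7.90 at 7 days. In naïve skin its lowest, median and highest values were 6.62, 7.43 and 8.10. Only 7-day replicate 5 lay below the highest naïve array. The difference was 1.36 ± 0.28 (adjusted p = 0.00924), and without naïve replicates 4 and 5 it was no longer called. At 14 days Mmp23 had 8.34, 8.03, 8.08, 8.24 and 7.79 (0.75, adjusted p = 0.0648). Its probesets differed. The brightest gave 1.32 at 7 days and 0.82 at 14 days, both called (adjusted p = 0.00906 and 0.0389 over all probesets). Another gave 1.35 and 0.71, called only at 7 days (adjusted p = 0.0116 and 0.0818). The dimmest gave 0.20 and 0.03 and was not called at either time.

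Mmp19, an enzyme that cuts basement membrane proteins, was higher at both times. It had 5.84, 6.01, 5.84, 6.40 and 5.67 at 7 days, and in naïve skin a lowest of 4.61, a median of 4.95 and a highest of 5.03. At 14 days it had 5.79, 5.75, 5.59, 6.23 and 5.68, so every denervated array at either time lay above every naïve array. The rise was 1.08 ± 0.14 at 7 days (adjusted p = 0.000775) and 0.93 ± 0.14 at 14 days (adjusted p = 0.00111). Between the times the difference was -0.15 (95% interval -0.45 to 0.15, adjusted p = 0.457). Its 7-day call held under all 29 alternative settings, and its 14-day call under all except a required size of 1. Mmp19 was measured by 1 probeset, and its mean of 5.501 was barely over the dim limit of 5.4964. Every naïve value lay under that limit, so the sizes of its rise start from low signal. The setting without dim genes kept Mmp19 only by this margin.

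Of the gelatinases, Mmp2 had 8.28, 8.60, 8.54, 8.90 and 8.25 at 7 days, and in naïve skin a lowest of 6.63, a median of 7.96 and a highest of 8.45. It was not called at 7 days (0.78, 95% interval 0.25 to 1.31, adjusted p = 0.057) or at 14 days (0.56, adjusted p = 0.11). That value is the median of unlike probesets. The bright Mmp2 probeset, with a mean of 10.8, gave 11.26, 11.80, 11.75, 12.38 and 11.19 at 7 days, against 10.40, 10.67, 11.36, 9.10, 7.60 and 10.60 in naïve skin, a difference of 1.72 with an adjusted p of 0.0466 over all probesets. The other, with a mean of 5.47, gave -0.16. Mmp9, the gelatinase of leukocytes and keratinocytes, was dim, with values of 4.10 to 4.35 at 7 days, 4.20 to 4.42 at 14 days and 4.06 to 4.18 in naïve skin. It was called higher at 14 days (adjusted p = 0.0192).

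Lower values were few. Mmp28 (epilysin), made by keratinocytes, was lower at 7 days with a difference of -0.33 (adjusted p = 0.0422). Mmp24, a membrane-type Mmp known from the nervous system, was lower at 14 days with a difference of -0.57 (adjusted p = 0.0179), with 6.89 to 7.11 at 14 days and 7.15 to 8.17 in naïve skin. Neither call held without naïve replicates 4 and 5. The naïve values of Mmp24 were 7.15 and 7.20 in replicates 1 and 2 and 7.53 to 8.17 in the others.

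**Figure D4:**
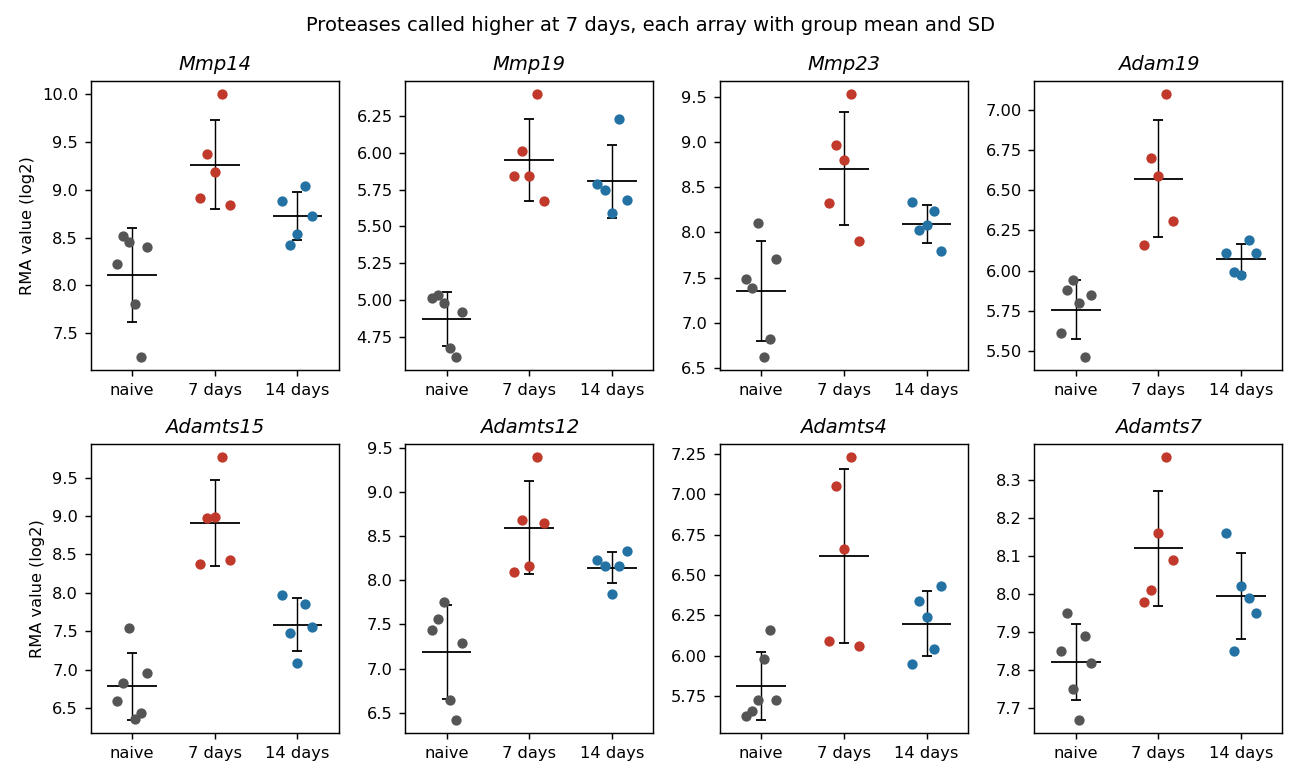
RMA value on the log2 scale (y axis, a separate range for each gene) of the 8 proteases called higher at 7 days in every array, with group mean (line) and SD (bars). In Mmp14, Mmp19, Adam19, Adamts15, Adamts12 and Adamts7 all 7-day values lie above all naïve values, and 7-day replicate 4 is the highest array in each of the 8.

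Among the 12 Adamts genes, 4 were higher (33.3%, against 7.85% of all genes), 0 lower and 8 not called at 7 days. Of the 12 differences 11 were above 0, against 6451 of 14217 over all genes. Adamts15, a hyalectanase that cuts versican and aggrecan, had the largest protease change of the group. It had 8.38, 8.97, 8.99, 9.77 and 8.43 at 7 days, and in naïve skin a lowest of 6.35, a median of 6.71 and a highest of 7.54. The groups were well apart, with a rise of 2.12 ± 0.26 (SE), or 4.36-fold, and an adjusted p of 0.000678. At 14 days Adamts15 had 7.97, 7.47, 7.09, 7.85 and 7.55, which overlapped naïve skin. It was higher than naïve by 0.80 (adjusted p = 0.0366) and lower than at 7 days with a difference of -1.32 ± 0.27 (adjusted p = 0.00668). The 14-day call was lost without either pair of naïve arrays.

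Adamts12, which cuts cartilage oligomeric matrix protein, had 8.09, 8.68, 8.16, 9.40 and 8.65 at 7 days. Its naïve values had a lowest of 6.42, a median of 7.37 and a highest of 7.76, below every 7-day array. The rise was 1.41 ± 0.26 (adjusted p = 0.00505). Its 14-day arrays gave 8.23, 8.16, 7.85, 8.16 and 8.33, again above every naïve array, and was higher by 0.96 ± 0.26 (adjusted p = 0.0191). Without naïve replicates 4 and 5 the 14-day difference was 0.63 and was not called. Adamts7, its close relative, rose by 0.30 at 7 days (adjusted p = 0.0228), a call also lost without that pair.

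The hyalectanases differed among themselves. Of the 6 measured, 2 were higher at 7 days, Adamts15 and Adamts4. Adamts4 had 6.09, 7.05, 6.66, 7.23 and 6.06 at 7 days, against 5.63, 5.66, 5.73, 5.98, 6.16 and 5.73 in naïve skin, a rise of 0.80 ± 0.20 with an adjusted p of 0.019 in which 7-day replicates 1 and 5 lay within the naïve range. Without 7-day replicate 4 it was not called. Adamts5, known with Adamts4 as a main aggrecanase, had 7.72, 8.50, 8.20, 8.17 and 6.97 at 7 days, against 7.31, 7.41, 7.42, 7.13, 6.08 and 7.47 in naïve skin, and was not called (0.78, 95% interval 0.21 to 1.34, adjusted p = 0.0708).

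Adamts1, which cuts versican and also binds endothelial growth factor, had 7.80, 8.52, 8.48, 8.24 and 7.43 at 7 days, against 8.21, 8.12, 7.88, 7.94, 8.16 and 7.78 in naïve skin, a difference of 0.08 (adjusted p = 0.792). At 14 days it had 7.60, 7.47, 7.53, 7.40 and 6.88, below every naïve array. It was lower than naïve with a difference of -0.64 (adjusted p = 0.0257) and lower than at 7 days with a difference of -0.72 (adjusted p = 0.0213). Without naïve replicates 4 and 5 the 14-day call was lost. For Adamts9 the probesets moved in opposite directions at 7 days, by 0.67 (adjusted p = 0.0173) for the brighter and by -0.22 (adjusted p = 0.0292) for the dimmer, so that the gene was not called. None of the 4 Adamtsl genes was called in any comparison.

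Of the 18 Adam genes 1 was called higher at 7 days (5.56%, against 7.85% of all genes), 17 were not called, and the median difference was -0.01. That gene was Adam19, a membrane protease known for shedding neuregulin in mouse, which had 6.16, 6.70, 6.59, 7.10 and 6.31 at 7 days, against 5.61, 5.88, 5.94, 5.80, 5.46 and 5.85 in naïve skin. The groups did not overlap, and the rise was 0.82 ± 0.14 (adjusted p = 0.0035). Its dimmest probeset gave 0.08 and was not called (adjusted p = 0.43 over all probesets). The 14-day arrays, at 5.97 to 6.19, also lay above every naïve array, but the gene was not called against naïve skin (0.32, adjusted p = 0.0971). Its brightest probeset was called in that comparison (0.53, adjusted p = 0.0491 over all probesets). At 14 days Adam19 was lower than at 7 days with a difference of -0.50 (adjusted p = 0.0287). Its probesets differed here. The brightest gave -0.39 (adjusted p = 0.155 over all probesets) and another -0.75 (adjusted p = 0.0275), while the rest were not called.

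Of the main sheddases, neither Adam17 nor Adam10 was called at 7 days. Adam17, which releases tumour necrosis factor and its receptors, had 9.37, 9.97, 9.74, 9.67 and 9.39 at 7 days and 9.24, 9.31, 9.13, 9.19 and 9.12 at 14 days. In naïve skin it had 9.27, 9.10, 9.53, 9.57, 9.32 and 9.70, overlapping both times, and it was called only between the times, lower at 14 days with a difference of -0.43 (adjusted p = 0.0281). Adam10, which cuts Notch receptors and the amyloid precursor protein, had 7.12, 7.07, 7.13, 7.13 and 7.18 at 14 days, against 7.14, 7.30, 6.56, 6.08, 5.84 and 5.96 in naïve skin. The 14-day arrays were nearly alike while the naïve arrays spread over more than 1 unit, and naïve replicates 1 and 2 lay within or above the 14-day range. It was called higher at 14 days by 0.65 (adjusted p = 0.0449), and 19 of 29 alternative settings lost that call.

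Adam15, a membrane protein of endothelium and other cells, was lower at 14 days than at 7 days with a difference of -0.69 (adjusted p = 0.0347), with 7.46 to 7.69 at 14 days and 7.85 to 8.78 at 7 days. Adam1a, Adam18, Adam3a and Adam6, known from sperm and testis in mouse, were higher at 14 days than at 7 days, and all except Adam1a were dim. Adam1a differed by 0.30 between the times (adjusted p = 0.00829) and by 0.19 from naïve skin at 14 days (adjusted p = 0.0365). Adam18 was called against both 7-day (adjusted p = 0.00238) and naïve skin (adjusted p = 0.0242), and Adam3a and Adam6 against 7-day skin (adjusted p = 0.0347 and 0.0178). For Adam8, the protease of myeloid cells, the probesets opposed each other at 14 days, with -1.06 (adjusted p = 0.00819) for the brighter and 0.39 (adjusted p = 0.00601) for the dimmer.

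Genes that act with these enzymes were read from lists and are described by counts, to be set beside the shares of all genes given above. Among 15 measured genes of proteinase activation and pericellular control, 5 were higher and 0 lower at 7 days, with a median of 0.54. They were Plat (2.12, adjusted p = 0.000342), the tissue plasminogen activator, Plau (0.87, adjusted p = 0.0335), the urokinase, its receptor Plaur (0.75, adjusted p = 0.00294), the convertase Pcsk5 (1.51, adjusted p = 0.00952) and Cd44 (0.93, adjusted p = 0.00544), a hyaluronan receptor that can dock Mmp enzymes. At 14 days 1 was higher, Plat at 0.81 (adjusted p = 0.0269). Of 4 other metzincins measured, Bmp1, the procollagen C-proteinase, was higher at 7 days by 1.30 (adjusted p = 0.00229) and at 14 days by 0.66 (adjusted p = 0.0275).

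Of 17 matrix substrates, 8 were higher and 0 lower at 7 days, with a median of 0.88, and 8 were higher and 1 lower at 14 days, with a median of 0.73. Vcan, the versican that hyalectanases cut, rose by 1.93 at 7 days (adjusted p = 0.00159), Fn1 (fibronectin) by 2.55 (adjusted p = 0.00132) and Tnc (tenascin C) by 3.15 (adjusted p = 0.00557). Col7a1, the anchoring fibril collagen, was lower at 14 days with a difference of -1.20 (adjusted p = 0.00969). Of 17 sheddase substrates, 3 were higher at 7 days, App and the tumour necrosis factor receptors Tnfrsf1a and Tnfrsf1b, by 0.29 to 0.53, and Dll1, a Notch ligand, was lower with a difference of -0.49 (adjusted p = 0.00451). Of the 6 measured partners that carry Adam10 or Adam17 to the cell surface, none was called at 7 days and Tspan33 was higher at 14 days by 0.40 (adjusted p = 0.0466).

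Markers of several cell types moved alongside these genes. Macrophage markers were higher at 7 days in 9 of 11 genes, with an average level of 8.24 to 8.95 at 7 days and 6.41 to 8.55 in naïve skin, and fibroblast markers in 4 of 8, with 11.50 to 12.35 and 9.11 to 11.44. Endothelial markers were higher in 4 of 6. Set against 7-day skin, 14-day skin had 4 of the 11 macrophage markers lower (Adgre1, Cd68, Fcgr2b and Tyrobp), with a list median of -0.80. Itgam, the only macrophage marker called higher at 14 days against naïve skin, differed by 0.26 between the times and was not called. Of the 6 endothelial markers 3 were lower (Emcn, Pecam1 and Tek), with a list median of -0.57. No fibroblast marker was called between the times, with a list median of -0.29. Nor was any hair follicle, skeletal muscle, keratinocyte, neutrophil, adipocyte or mast cell marker. At 14 days hair follicle markers were higher in 10 of 11 genes, with a level of 11.95 to 12.08 at 14 days and 6.26 to 12.19 in naïve skin, and skeletal muscle markers were lower in 8 of 12. At 7 days no marker of either list was called. The hair follicle level was then 9.07 to 11.70, with a list median change of 1.775. That level lay above naïve replicates 3 to 6 (6.26 to 6.5) and below replicates 1 and 2 (11.89 and 12.19). Of the keratinocyte, adipocyte and mast cell markers none was called at either time. Of 5 measured neutrophil markers, none was called at 7 days and S100a9 was higher at 14 days. Of the 9 members higher at 7 days, naïve replicates 4 and 5, which had the lowest macrophage and fibroblast levels, were the 2 lowest naïve arrays in 6. At the other end, 7-day replicate 4 was the highest array for Timp1 and for all 8 proteases, and had the highest fibroblast marker level, 12.35. The part of these cell types in the changes of the proteases and of Timp1 was not tested.

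At 7 days, 7 members had every denervated array above every naïve array and 0 had every one below, where 3.31% and 1.35% of all genes did. At 14 days the counts were 7 above and 2 below, against 3.69% and 6.66% of all genes. Over the 3 comparisons 21 members were called at least once (38.2%), against 38.6% of all genes, and 34 were not called in any. Scaling moved the balance of calls over all genes. At 7 days 1116 genes were higher and 378 lower, but with array medians subtracted 951 were higher and 1492 lower, and after a further quantile normalization 951 and 729. Between 14 and 7 days the main counts were 1260 higher and 1430 lower, against 2079 and 1005 with array medians subtracted. Among the members the same change of scale gave 8 higher and 6 lower at 7 days.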

How the data were processed

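The authors deposited log2 expression values from 16 arrays, 1 per rat, computed by RMA (robust multi-array averaging). The submitters' processing notes name R 3.0.1 and no RMA version. Of 31099 probesets, 57 control probesets, 9780 with no gene and 436 with several genes were left out, and the other 20826 were reduced to the median per gene, giving 14217 genes, 4525 of them with several probesets. Among the members, 16 had several probesets. No symbol needed updating against GRCr8.

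Groups were compared in R 4.3.3 with limma 3.58.1 (1 mean per group over all arrays, eBayes, two-sided, Benjamini-Hochberg adjustment over all genes). The members and the gene lists were chosen with earlier results of these data known, so no test was made over a list. The inhibitors are given in every array. Members called against naïve skin with a change of at least 1 are given in every denervated array and by the lowest, median and highest naïve array. Other called members are named with their change, along with 10 enzymes of known role, and the values by array of some of these are also printed. Mmp12, Mmp8, Mmp11, Adam8, Adamts9 and the members of the closing observations were named after their values were seen. Tested on simulated data at 7 days over 14217 genes, the fit recovered 93% of 100 genes changed by 1 on the log2 scale and 69% of 100 changed by 0.5, with 12 false calls. The simulated noise had the same spread in every group and was independent between genes and arrays. The naïve arrays here were less alike than the denervated ones, so these rates may not carry over to the real data.

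The labels give no pairing of arrays across groups, and replicate numbers were used only in the replicate block alternative. No protein sequences were used here, so the Adam genes were not divided into active and inactive proteases. The number of arrays limits the precision. Alternatives changed the probeset summary, scaling, array weights, thresholds, dim genes, the arrays fitted, a replicate block, and each array left out in turn.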

Additional observations from a re-analysis of the deposited data

Results flagged for a closer look

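In each group, the highest and lowest array of every member was compared with the others by the ratio of its gap to the group's range. Over 165 groups of 55 members 10 arrays stood apart, and chance alone gives about 1 in 20 groups. At 7 days these were replicate 4 for Mmp12 (6.59, others 4.56 to 4.96), replicate 2 for Adamts8 (6.70, others 6.34 to 6.43) and replicate 5 for Adam7 (5.45, others 5.04 to 5.13). At 14 days they were replicate 5 for Adamts1 (6.88, others 7.40 to 7.60) and for Mmp24 (6.89, others 7.06 to 7.11), replicate 1 for Adam22 (6.00, others 5.34 to 5.37) and replicate 2 for Adam9 (5.80, others 6.28 to 6.41). In naïve skin they were replicate 5 for Adamts5 (6.08, others 7.13 to 7.47) and for Mmp7 (4.89, others 4.62 to 4.69), and replicate 3 for Mmp11 (5.99, others 4.93 to 5.18).

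The change relative to naïve skin differed between 14 and 7 days in 11 members, by the direct limma comparison of the times, in which the naïve arrays cancel. Lower at 14 days were Timp1 (-2.18), Adamts15 (-1.32), Adamts1 (-0.72), Adam15 (-0.69), Adam19 (-0.50) and Adam17 (-0.43). Higher at 14 days was Adam1a (0.30). The dim genes Adam3a (0.40), Adam18 (0.39), Adam6 (0.28) and Mmp10 (0.19) were also called higher at 14 days, and at their low signal these fitted differences are not read as sizes of change.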

How the results depend on the processing

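Of 31 calls of single members, 16 held when each of the 16 arrays was left out in turn, among them every call of Timp1, Adamts12, Mmp19, Mmp14 and Mmp23. Leaving out any one of 14 arrays lost the call of Adam10 at 14 days, any one of 9 that of Mmp28 at 7 days or of Adam1a at 14 days, and any one of 7 that of Adamts15 at 14 days. The call of Adamts4 was lost without 7-day replicate 4, of Adamts7 without 7-day replicate 3 or 4 or naïve replicate 4, and of Adamts1 at 14 days without 14-day replicate 5 or naïve replicate 5. Between the times the calls of Adam15, Adam17, Adam19 and Adamts1 were lost on leaving out any one of 8, 6, 6 and 4 arrays, 7-day replicates 2, 3 and 4 among them in each. Of the dim genes, Adam3a, Adam18, Mmp10 and Mmp9 each lost a call in this way. Across 1154 values of 40 results under up to 29 settings, 978 kept their direction and side of the threshold, 162 lost it, 3 gained it and 11 changed sign.

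With arrays left out singly, members called higher at 7 days numbered 7 to 12 and lower 0 to 4, at 14 days 4 to 10 and 1 to 5, and between the times 3 to 6 higher and 2 to 7 lower. Array medians subtracted gave 6 lower at 7 days. Array weights gave 5 lower at 7 days, and at 14 days 13 higher and 9 lower. With only the groups compared in the fit, 5 were higher and 0 lower at 7 days. At an adjusted p under 0.01, 0 were lower at 7 days. At 14 days this left 2 higher and 0 lower, and between the times 2 higher and 2 lower. A required size of 1 left 0 lower at 7 days. At 14 days it left 1 higher and 0 lower, and between the times 0 higher and 2 lower. Leaving out dim genes gave 1 higher between the times, and a further quantile normalization 2. Without naïve replicates 1 and 2, 8 were lower at 7 days and 9 at 14 days. Without naïve replicates 4 and 5, 0 were lower at 7 days, and at 14 days 1 was higher and 0 lower. The cause of these shifts was not tested.

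The replicate block gave 8 members higher and 0 lower at 7 days. At 14 days it gave 4 and 1, and between the times 6 and 6. Same-numbered arrays at 7 days and in naïve skin correlated in their deviations between -0.55 and 0.58, with no common sign. The labels give no pairing across groups, and these correlations cannot show whether same-numbered arrays shared a batch.

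Sign changes were limited to uncalled differences of Timp3 and Timp4. Timp3 at 14 days was -0.209 from the brightest probeset and -0.0568 without naïve replicates 4 and 5. Between the times it was -0.0171 from the brightest probeset, and at 7 days 0.0329 with array weights and 0.12 without naïve replicates 1 and 2. Timp4 at 7 days was -0.0401 with medians subtracted, -0.0300 after quantile normalization and -0.138 without naïve replicates 4 and 5. With arrays left out singly Timp4 at 7 days ranged from -0.0724 to 0.125, below 0 without 7-day replicate 5 and without naïve replicate 4 or 5.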
